A study of Homo sapiens with 10 samples.

Results

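EDN1, SYNDIG1 and PLAC8 are 3 human genes that belong to no common family. They are 3 of the 36591 human genes counted in microglia that were sorted from mouse brain, and they were chosen by their measured levels: in each of them all 5 libraries from AppSAA mice lay above all 5 libraries from AppHu mice in normalised CPM, the read count scaled to the total on human genes of its library. Their difference between the genotypes is therefore given as a description, without a test. The standard errors printed with it come from the fit and take no account of this choice. The same separation was seen in 244 of the 15455 human genes tested, or 1.58%, so the membership itself is no result about these 3 genes.

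The data are 10 bulk RNA sequencing libraries, 5 from AppHu mice (AppKI in the sample labels) and 5 from AppSAA mice, which address how human microglia respond to amyloid-β pathology. AppHu mice carry a humanized amyloid-β sequence in App without pathological mutations, and AppSAA mice carry the same kind of allele with familial Alzheimer's disease mutations and develop plaques. Both genotypes lack Rag2 (Rag2KO) and carry human CSF1 in place of the mouse gene (hCSF1KI), both received microglial progenitors made from H9, a single line of human embryonic stem cells, at postnatal day 4, and both were analysed at 6 months of age, with hosts of both sexes in each genotype. The sorted cells were CD11b positive and human CD45 positive. Per the paper, newborn hosts were given an inhibitor of the CSF1 receptor before grafting, to deplete their own microglia. The host brain still kept part of its own mouse microglia, so that the grafted cells shared the tissue with mouse cells of the same type.

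EDN1 encodes endothelin-1, a secreted vasoconstrictor peptide that is best known as a product of the vascular endothelium. Its precursor is cut by furin-type proteases and then by endothelin-converting enzymes, and the peptide acts on the G-protein coupled receptors EDNRA and EDNRB. SYNDIG1 encodes a membrane protein of the dispanin family that was described at excitatory synapses, where it interacts with AMPA-type glutamate receptors. PLAC8 encodes a small cysteine-rich protein that is found in several cells of the immune system, among them granulocytes and plasmacytoid dendritic cells. None of the 3 is among the genes by which microglia are usually defined.

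In GENCODE 44 on GRCh38, EDN1 (ENSG00000078401.7) occupies positions 12290361 to 12297194 of chromosome 6 on the forward strand, and its MANE Select transcript ENST00000379375.6 has 5 exons and 2035 bases. SYNDIG1 (ENSG00000101463.6) covers 196988 bases of chromosome 20, 24469629 to 24666616 on its forward strand, and its transcript ENST00000376862.4 has 4 exons and 2092 bases. PLAC8 (ENSG00000145287.11) occupies positions 83090048 to 83137075 of chromosome 4 on the reverse strand, and its transcript ENST00000311507.9 has 5 exons and 1374 bases. Neither EDN1 nor PLAC8 overlapped another annotated gene. The span of SYNDIG1 holds 1 other gene (ENSG00000228539.1), none of whose exons overlaps an exon of SYNDIG1.

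The 250 bases before the annotated start are shown for EDN1 and PLAC8, because the factors known to act on the EDN1 promoter were also measured in these libraries. Both sequences are from RefSeq on GRCh38.p14, at chr6:12290111-12290360 on the forward strand and chr4:83114730-83114979 on the reverse strand, and are written 5′ to 3′. The second lies within the annotated span of PLAC8, since other transcripts of the gene start further upstream. Capitals mark matches on either strand to 5 short motifs, which were chosen after the EDN1 sequence had been seen.
EDN1: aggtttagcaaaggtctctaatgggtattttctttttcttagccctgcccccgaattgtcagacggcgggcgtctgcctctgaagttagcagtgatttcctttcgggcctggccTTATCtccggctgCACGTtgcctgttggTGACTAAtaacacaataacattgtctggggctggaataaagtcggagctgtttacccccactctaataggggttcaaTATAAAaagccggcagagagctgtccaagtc
PLAC8: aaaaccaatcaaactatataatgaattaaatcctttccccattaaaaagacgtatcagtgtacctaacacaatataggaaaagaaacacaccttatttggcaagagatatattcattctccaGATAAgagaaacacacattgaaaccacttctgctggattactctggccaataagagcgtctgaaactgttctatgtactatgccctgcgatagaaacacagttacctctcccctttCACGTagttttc

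In EDN1 the match to GATAA began 136 bases before the start, that to ACGTG (the core of the hypoxia response element) 123 bases before it, that to TGACTAA (a variant of the AP-1 site) 108 bases before it and that to TATAAA 31 bases before it. In PLAC8 the GATAA match began 128 bases and the ACGTG match 12 bases before the start, with no match to TATAAA or TGACTAA. Neither window held TGANTCA, the usual AP-1 site. Among all 35116 windows of the same length in the table, GATAA was present in 20.4%, ACGTG in 18.5%, TATAAA in 10.7%, TGANTCA in 6.57% and TGACTAA in 1.62%. The motifs do not overlap each other in these windows, and a match describes letters, not a bound site.

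Total counts per library ranged from 25040739 to 39641854, and the total on human genes did not differ past the threshold between genotypes (two-sided exact permutation test, p = 0.0714), while the total over both species was lower in AppSAA (exact p = 0.0397). The share of counts on mouse genes was 3.85% ± 0.784 (SD, n = 5) in AppHu and 3.03% ± 0.671 (SD, n = 5) in AppSAA (exact p = 0.119). All 15 microglial markers were measured and none passed the threshold, 13 being lower and 2 higher in AppSAA with a median log2 fold change of -0.071. P2RY12, a purinergic receptor of homeostatic microglia, had means of 15017 CPM in AppHu and 14231 CPM in AppSAA, CSF1R, the receptor of CSF1, had 10121 and 9341 CPM, CX3CR1, the fractalkine receptor, had 9106 and 8261 CPM, and GPR34 had 4399 and 4188 CPM (adjusted p of 0.803, 0.591, 0.484 and 0.843 by edgeR). Over all 15455 human genes the median log2 fold change of AppSAA over AppHu was 0.0018, and edgeR's quasi-likelihood test called 11 genes higher (0.0712%) and 1 lower (0.00647%) at an adjusted p under 0.05. These are the shares against which counts of other genes are read below, and they run over all human genes, the 3 chosen ones included. In bulk RNA, fewer cells of a kind and less RNA per cell cannot be told apart.

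EDN1 was counted 75, 40, 55, 40 and 72 times in AppHu replicates 3, 4, 6, 7 and 8. In AppSAA replicates 4, 5, 6, 7 and 8 it was counted 191, 124, 158, 359 and 363 times. The groups were thus apart in the counts as deposited as well as after normalisation. In normalised CPM the AppHu libraries held 2.6997, 1.04, 1.54, 1.21 and 2.45, and the AppSAA libraries 6.58, 4.71, 6.63, 11.8 and 11.8. Within AppSAA, replicates 7 and 8 stood above the other libraries, which ranged from 4.71 to 6.63. The mean rose from 1.79 ± 0.745 CPM (SD, n = 5) to 8.30 ± 3.28 CPM (SD, n = 5), a ratio of 4.64, and the fitted log2 fold change was 2.23 (standard error 0.328), rank 2 among all genes tested. The lowest AppSAA library was 1.75 times the highest AppHu library.

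SYNDIG1, which had the most reads of the 3, was counted 661, 1008, 1176, 775 and 898 times in AppHu and 1603, 1052, 1190, 1714 and 1543 times in AppSAA, in the same order of replicates. In these counts the groups overlapped, since AppHu replicate 6 had 1176 and AppSAA replicate 5 had 1052. After scaling to library size they were apart, at 23.8, 26.2, 33.0, 23.4 and 30.5 CPM in AppHu and 55.2, 40.0, 49.9, 56.2 and 50.1 CPM in AppSAA. The separation of SYNDIG1 thus rests on the normalisation to a library total that was higher in most AppHu libraries. Its means were 27.4 ± 4.24 CPM and 50.3 ± 6.45 CPM (SD, n = 5 each), a ratio of 1.84 and a log2 fold change of 0.88 (standard error 0.119), and the lowest AppSAA library was 1.21 times the highest AppHu library.

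PLAC8 was counted 78, 116, 108, 74 and 121 times in AppHu and 183, 167, 153, 210 and 292 times in AppSAA. The corresponding CPM were 2.81, 3.01, 3.03, 2.23 and 4.11 in AppHu and 6.31, 6.35, 6.42, 6.89 and 9.48 in AppSAA. The groups were apart on both scales, and replicate 8 was the highest library in each genotype, while AppSAA replicates 4 to 7 lay within 6.31 to 6.89 CPM. The means were 3.04 ± 0.680 CPM and 7.09 ± 1.36 CPM (SD, n = 5 each), a ratio of 2.33 and a log2 fold change of 1.22 (standard error 0.185). The lowest AppSAA library was 1.53 times the highest AppHu library.

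**Figure D1:**
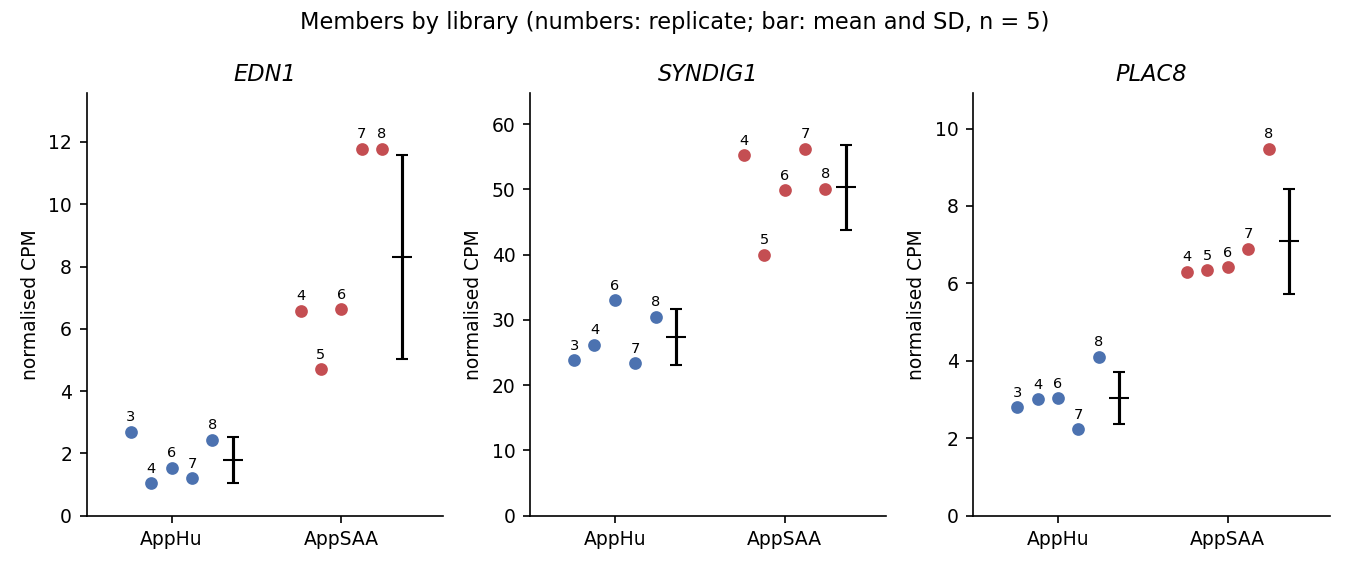
Normalised CPM of EDN1, SYNDIG1 and PLAC8 in each library, on linear axes from 0, with AppHu in blue, AppSAA in red, the replicate number above each point and the mean with its SD (n = 5) as a black bar. The genotypes do not overlap in any panel, which is the property the genes were chosen for, and the gap is narrowest as a ratio for SYNDIG1, where the lowest AppSAA library is 1.21 times the highest AppHu library.

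The separation was of different widths across the genes that shared it. The gene just inside the rule, TMEM106A, had its highest AppHu library at 95.447 CPM and its lowest AppSAA library at 95.460 CPM. The gene just outside, PRR5L, had them at 1.6198 and 1.6196 CPM. The gaps of EDN1, SYNDIG1 and PLAC8 were 1.75, 1.21 and 1.53 times. TMEM106A was taken as the gene with the narrowest gap, so every other gene that met the rule had a wider one. By log2 fold change they ranked 2, 240 and 65 among the 15455 genes.

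The 3 genes also differed in how much they varied within a genotype, which the rule did not use directly. The coefficient of variation of CPM was 41.7% in AppHu and 39.5% in AppSAA for EDN1, 22.4% and 19.2% for PLAC8, and 15.5% and 12.8% for SYNDIG1. Counting error alone would give 15.8% at the lowest EDN1 count in AppHu, 11.6% at the lowest PLAC8 count and 3.89% at the lowest SYNDIG1 count. The biological coefficient of variation fitted by edgeR was 0.343 for EDN1, 0.143 for SYNDIG1 and 0.201 for PLAC8, above those of 84.4%, 41.1% and 59.3% of the human genes. EDN1 was thus among the more variable genes and SYNDIG1 was near the middle.

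Compared per kilobase of the union of annotated exons, SYNDIG1 was the highest of the 3 in both genotypes, at 11.3 CPM per kb in AppHu and 20.8 CPM per kb in AppSAA. EDN1 was at 0.878 and 4.08 CPM per kb and PLAC8 at 0.802 and 1.87 CPM per kb. EDN1 and PLAC8 overlapped in both genotypes on this scale, from 0.510 to 1.33 against 0.590 to 1.09 CPM per kb in AppHu and from 2.32 to 5.79 against 1.67 to 2.50 CPM per kb in AppSAA. Their order turned with the length used: per kilobase of the MANE Select transcript PLAC8 was at 2.21 and 5.16 CPM per kb, above EDN1 in both means. By mean CPM over all libraries, without regard to length, EDN1 and PLAC8 lay above 34.7% and SYNDIG1 above 68.1% of the human genes tested, so EDN1 and PLAC8 were in the lower part of the measured range.

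**Figure D2:**
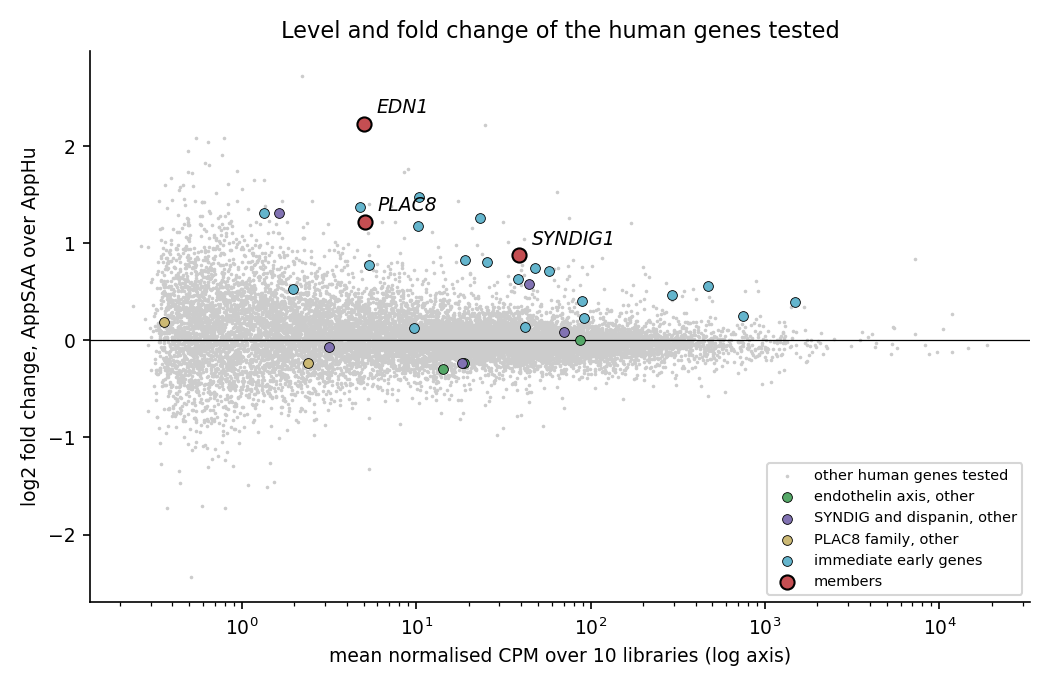
Mean normalised CPM over the 10 libraries (log axis) against the log2 fold change of AppSAA over AppHu for the 15455 human genes tested, with EDN1, SYNDIG1 and PLAC8 in red and the tested genes of their families and the immediate early genes in other colours. EDN1 at 2.23 lies at the upper edge of the cloud and PLAC8 at 1.22 and SYNDIG1 at 0.88 lie above most genes of their level, while the other genes of the endothelin axis and the PLAC8 family lie near 0.

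Of the 13 genes of the endothelin axis, 4 were high enough to be tested, and apart from EDN1 none of the other 3 changed past the threshold. EDNRB, the endothelin receptor that binds all endothelins alike, was the receptor that these cells expressed. It was measured at 21.0, 21.5, 21.0, 17.1 and 21.2 CPM in AppHu and at 16.3, 17.0, 18.5, 17.4 and 17.3 CPM in AppSAA, where the groups overlapped through AppHu replicate 7 alone. Its means were 20.4 and 17.3 CPM, and the fitted change was -0.24 ± 0.088 on the log2 scale (standard error), with an adjusted p of 0.382 by edgeR. EDNRA, the other receptor, had at most 3 counts in any library.

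The proteases of the pathway were unequal. FURIN, which cleaves the endothelin precursor, had means of 15.8 and 12.9 CPM (log2 fold change -0.29, adjusted p = 0.515 by edgeR), and PCSK7, a related protease, had 86.6 and 86.8 CPM (0.0037, adjusted p = 0.993). The converting enzyme ECE1, which makes the active peptide, had at most 9 counts in a library and none in 8 of the 10, and ECE2 had counts in 1 library. No counts were found for EDN2, EDN3, ECEL1 or CMA1, so EDN1 was the 1 endothelin gene with reads. KEL, a blood group protease that can cleave endothelins, had 0 to 14 counts, and MME, which degrades peptides, had counts in 1 library.

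Factors known to act on the EDN1 promoter were measured for 13 of the 15 genes listed. Of these 9 were higher and 4 lower in AppSAA, with a median log2 fold change of 0.16 beside 0.0018 over all human genes, and none passed the threshold. Those with the highest CPM were as follows. FOS, a subunit of AP-1, was at 1288 and 1698 CPM (log2 fold change 0.40, adjusted p = 0.522 by edgeR). HIF1A, the hypoxia-inducible factor subunit, was at 275 and 271 CPM (-0.020, adjusted p = 0.974), VEZF1 was at 133 and 124 CPM (-0.10, adjusted p = 0.717), and ARNT, the partner of HIF1A, at 104 and 96.0 CPM (-0.11, adjusted p = 0.639), all by edgeR. GATA2 had 1 count in 1 library, and FOSL2 had at most 12. The highest log2 fold change among these factors was 0.74, of FOSB. SMAD3 (0.26, adjusted p = 0.220 by edgeR) was apart, at 40.7 to 50.5 CPM in AppHu and 52.8 to 59.2 CPM in AppSAA. It was the 1 factor of 13 apart and higher, beside 1.58% of all human genes. By edgeR 5 of the 13 had an unadjusted p under 0.05, beside 1514 of 15455 human genes.

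Of the 12 genes of the SYNDIG and dispanin family, 6 were tested. SYNDIG1 is left out here for the same reason as EDN1, and none of the other 5 passed the threshold. TMEM91, a close relative of SYNDIG1, had means of 19.9 and 16.8 CPM (log2 fold change -0.24, adjusted p = 0.659 by edgeR). The interferon-induced IFITM2, which restricts entry of viruses, had 68.3 and 72.6 CPM (0.086, adjusted p = 0.857), and IFITM10 had 3.22 and 3.07 CPM (-0.066, adjusted p = 0.973). IFITM1 and IFITM3, also antiviral, had log2 fold changes of 1.31 (adjusted p = 0.491) and 0.58 (adjusted p = 0.659), which rested on AppSAA replicate 4. In that library IFITM1 was at 7.27 CPM and IFITM3 at 127 CPM, against at most 1.72 and 44.8 CPM in any other library. Without it their log2 fold changes were 0.24 and -0.030. SYNDIG1 in the same library, at 55.2 CPM, was within the range of the other AppSAA libraries.

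SYNDIG1L, the closest paralogue of SYNDIG1, had counts in 4 libraries and at most 10 in one, and TRARG1 had none. PRRT1, PRRT2, TMEM233 and IFITM5 were also too low to be tested, with at most 25 counts in a library. SYNDIG1 was thus the 1 tested gene of its own subgroup besides TMEM91. The receptors with which SYNDIG1 is known to interact had few counts: of 16 AMPA receptor and auxiliary subunit genes only CNIH3, which helps to traffic the receptor, was tested, at 1.31 and 1.90 CPM (log2 fold change 0.54, adjusted p = 0.533 by edgeR). GRIA3, CACNG2, CACNG3, CACNG7, GSG1L and SHISA6 had no counts, and GRIA1 and GRIA2 had at most 3 in any library. GRIA4 had counts in 9 of 10 libraries, with medians of 6 in AppHu and 13 in AppSAA and at most 61 in a library, and did not pass the filter.

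The PLAC8 family has 3 human members here. PLAC8L1, of unknown function, was close to the detection limit at 0.335 and 0.383 CPM (log2 fold change 0.18, adjusted p = 0.942 by edgeR), and CNFN, which contributes to the cornified envelope of skin, had 2.59 and 2.21 CPM (-0.23, adjusted p = 0.746). Neither passed the threshold. The genotypes overlapped in both genes.

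**Figure D3:**
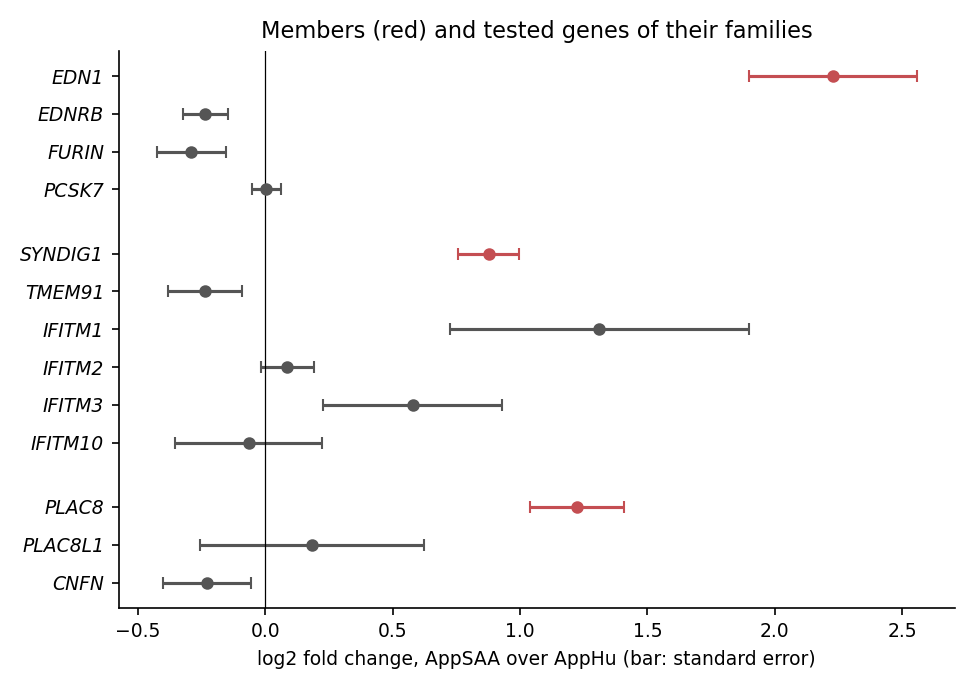
Log2 fold change of AppSAA over AppHu with its standard error for EDN1, SYNDIG1 and PLAC8 (red) and every tested gene of the endothelin axis, the SYNDIG and dispanin family and the PLAC8 family (grey). The other genes lie between -0.29 and 0.58 except IFITM1 at 1.31, with the widest error of the plot, 0.586, and 1 AppSAA library at 7.27 CPM. The errors of the red genes take no account of how these genes were chosen.

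Because EDN1 is best known from endothelium, SYNDIG1 from neurons and PLAC8 from other leukocytes, the markers of those cells were read beside them. Of 14 human endothelial markers 4 were tested and none passed the threshold. CDH5, CLDN5, KDR, EMCN, ERG and SOX17, which define endothelium, had no counts in any library. The levels that were found came from PECAM1 (134 and 114 CPM, adjusted p = 0.469) and EGFL7 (76.2 and 64.7 CPM, adjusted p = 0.403), followed by TEK (1.50 and 1.82 CPM, adjusted p = 0.843) and FLT1 (1.30 and 1.82 CPM, adjusted p = 0.816), all by edgeR. The summed level of the endothelial list was 181 to 242 CPM in AppHu and 170 to 197 CPM in AppSAA, and its part in the level of EDN1 was not tested.

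Of 9 neuronal markers only RBFOX3 was tested (0.799 and 1.21 CPM, adjusted p = 0.732 by edgeR), NEFL and STMN2 had no counts, and the summed level of the list was 0.675 to 1.599 CPM in AppHu and 1.33 to 2.26 CPM in AppSAA, and its part in the level of SYNDIG1 was not tested.

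Of 12 neutrophil and progenitor markers 4 were tested and none passed the threshold, while MPO, PRTN3 and LTF had no counts. The list's summed level, 1002 to 1121 CPM in AppHu and 1025 to 1104 CPM in AppSAA, was carried by CSF3R (973 and 983 CPM, adjusted p = 0.965), FCGR3B (53.9 and 54.8 CPM, adjusted p = 0.962) and CXCR2 (17.0 and 21.4 CPM, adjusted p = 0.426). S100A8 was at 15.7 CPM in AppSAA replicate 4 and at most 1.30 CPM in every other library (log2 fold change 2.72, adjusted p = 0.308 by edgeR). PLAC8 was at 6.31 CPM in that library, close to 6.35 and 6.42 CPM in AppSAA replicates 5 and 6. Without AppSAA replicate 4 the log2 fold change of PLAC8 was 1.26. The part of other leukocytes in the level of PLAC8 was not tested. In classical monocyte markers FCN1 and S100A12 had no counts and none of the 5 tested passed: CD14 (178 and 147 CPM, adjusted p = 0.505), CD36 (185 and 122 CPM, 0.431) and LYZ (13.9 and 17.7 CPM, 0.512) were among the highest, all by edgeR. The summed level of the monocyte list was 402 to 563 CPM in AppHu and 320 to 435 CPM in AppSAA.

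Plasmacytoid dendritic cell markers were mixed. CLEC4C, a marker of these cells, and GZMB, which is not particular to them, had 1 count each over all libraries. LILRA4, a receptor of the leukocyte immunoglobulin-like family, was at 29.3 and 43.0 CPM, apart between the genotypes, with an adjusted p of 0.0548 in edgeR (log2 fold change 0.55), and passed in 6 of 20 alternatives, where the adjusted p ranged from 7.14e-05 to 0.227. IL3RA (217 and 205 CPM, adjusted p = 0.878), TCF4 (101 and 111 CPM, 0.476) and IRF7 (55.2 and 62.0 CPM, 0.948) did not pass, all by edgeR. TCF4 was also apart, with its highest AppHu library at 104.6 CPM and its lowest AppSAA library at 105.8 CPM, so 2 of the 5 tested markers were apart and higher beside 1.58% of all human genes. The log2 fold change of IRF7 was 0.17, and -0.29 without AppSAA replicate 4. The summed level was 332 to 453 CPM in AppHu and 398 to 455 CPM in AppSAA. T and NK cell markers were limited to GNLY (2.53 and 2.68 CPM, adjusted p = 0.973) and CD7 (0.807 and 0.825 CPM, 0.990) among 9 genes, with a summed level of 1.94 to 5.13 CPM in AppHu and 2.99 to 4.45 CPM in AppSAA. Markers of border-associated macrophages were lower in 7 of 8 genes, with a median log2 fold change of -0.45, and none passed: STAB1 (1941 and 1782 CPM, adjusted p = 0.799), MRC1 (1236 and 920 CPM, 0.185), FOLR2 (991 and 914 CPM, 0.731) and LYVE1 (500 and 360 CPM, 0.321) had the highest CPM. The exception was SIGLEC1 (log2 fold change 0.23), at 229 CPM in AppSAA replicate 4 and 30.1 to 54.8 CPM in the other AppSAA libraries. MRC1 was apart, with its highest AppSAA library at 1116 CPM and its lowest AppHu library at 1130.3 CPM. The share of all human genes that were apart and lower in AppSAA is not given here, so this separation has no background beside it. MRC1 passed in 2 of 20 alternatives, where its adjusted p ranged from 0.0364 to 0.535. The summed level of that list was 4497 to 5098 CPM in AppHu and 3800 to 4743 CPM in AppSAA, and its part in the levels of EDN1, SYNDIG1 and PLAC8 was not tested.

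Immediate early genes, which are transcribed within minutes of a stimulus and also rise while tissue is dissociated, are given beside the 3 genes for that reason. All 20 were tested and all 20 were higher in AppSAA, where 50.5% of all human genes were, with a median log2 fold change of 0.67 beside 0.0018 over all human genes. The list was chosen with earlier results of these data known, so its counts are a description and no independent result. EGR1 (5.49 and 15.3 CPM, log2 fold change 1.48, adjusted p = 0.0331) and EGR3 (6.27 and 14.2 CPM, 1.18, adjusted p = 0.0331) passed the threshold in edgeR, or 2 of 20 beside 0.0712% of all genes. With the library total as a covariate their log2 fold changes were 1.71 and 1.33 (adjusted p = 0.108 for both), and with the mouse share as a covariate 1.56 and 1.29 (adjusted p = 0.112 for both), so the fitted change was no smaller while the call was lost. With 1 library left out EGR1 passed in 2 and EGR3 in 3 of 10 fits, and over all alternatives the adjusted p ranged from 3.79e-07 to 0.155 for EGR1 and from 1.22e-06 to 0.155 for EGR3. The summed level of the list was 2535 to 3835 CPM in AppHu and 2671 to 4897 CPM in AppSAA. FOS, FOSB, JUN and JUNB are also in the list of factors at the EDN1 promoter, so the lists overlap.

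Within genotypes, after the group means had been subtracted, EDN1 had a Pearson r of 0.588 with the mean log2 CPM of the immediate early genes over the 10 libraries, PLAC8 had 0.373 and SYNDIG1 had 0.0759. Within AppSAA, replicates 7 and 8, which held the most EDN1, were also those with the highest immediate early mean. Within AppHu the orders differed. Replicate 3 held the most EDN1, at 2.6997 CPM, while replicates 8 and 7 had the highest immediate early means. EDN1 was at 2.45 CPM in AppHu replicate 8 and at 1.21 CPM in AppHu replicate 7. These coefficients describe 10 libraries of 2 genotypes, and with each library left out ranged from 0.487 to 0.716 for EDN1, 0.157 to 0.645 for PLAC8 and -0.242 to 0.402 for SYNDIG1. The part of immediate early induction in the level of EDN1 was not tested.

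The 3 genes did not vary as one within genotypes. The Pearson r was 0.588 between EDN1 and PLAC8 (0.471 to 0.728 with each library left out), 0.445 between SYNDIG1 and PLAC8 and 0.374 between EDN1 and SYNDIG1 (0.111 to 0.648). Since libraries share depth and handling, these values are a description. PLAC8 varied most closely with the share of counts on mouse genes, with an r of 0.791 within genotypes (0.660 to 0.877), against 0.430 for EDN1 and 0.356 for SYNDIG1. The mean mouse share was 3.85% in AppHu and 3.03% in AppSAA and did not differ past the threshold (two-sided exact permutation test, p = 0.119). With the mouse share as a covariate the log2 fold changes were 2.50 for EDN1, 0.97 for SYNDIG1 and 1.49 for PLAC8. The part of the mouse share in the levels of the 3 genes was not tested.

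The genes whose libraries varied most like each gene within genotypes were, for EDN1, MSRB2 (r = 0.941), C19orf18 (0.932), ERI1 (0.926) and LINC02193 (0.926), and for SYNDIG1 PAIP2B (0.979), FAM157C (0.940), CARF (0.936) and SEC16B (0.932). For PLAC8 they were MORC2 (0.943), BBS2 (0.935), AC020978.3 (0.894) and FYCO1 (0.883). All are over 10 libraries and were picked as the highest of all human genes tested. Of the 12 genes, the largest log2 fold changes were 0.60 for LINC02193, 0.40 for AC020978.3 and 0.31 for PAIP2B, beside a median of 0.0018 over all human genes. The others lay between -0.096 and 0.15. Without subtracting the group means, the most alike were SMYD3 (r = 0.953) and TMEM156 (0.943) for EDN1, AC008691.1 (0.947) and AL445623.2 (0.944) for SYNDIG1, and FCGR1A (0.953) and CD44 (0.938) for PLAC8, where the difference between genotypes that chose the 3 genes enters the coefficient.

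The mouse counterparts, which did not enter the choice of the human genes, had few reads in this sort for human cells, and whether these came from host cells or free RNA was not tested. Mouse Edn1 had 1, 0, 0, 0 and 16 counts in AppHu and 0, 4, 0, 0 and 7 in AppSAA. Mouse Syndig1 had 0, 10, 5, 0 and 18 counts in AppHu and 0, 0, 6, 14 and 4 in AppSAA. Mouse Plac8 had 9, 1, 4, 10 and 4 counts in AppHu and 1, 1, 5, 0 and 0 in AppSAA. The counts were too low for the fit across the 9376 mouse genes tested, and log2 CPM did not differ past the threshold in two-sided exact permutation tests (p = 1 for Edn1, 0.952 for Syndig1 and 0.135 for Plac8, or 1, 1 and 0.405 adjusted over 3 genes). No difference was detected in these 3 mouse genes, of which Plac8 had 28 counts in AppHu and 7 in AppSAA in all.

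The human genes had 40 to 363, 661 to 1714 and 74 to 292 counts in the same libraries, and the mouse counterparts at most 18 in a library. Read library by library, AppHu replicate 8 had 16 mouse Edn1 beside 72 human EDN1 counts, and 18 mouse Syndig1 beside 898 human SYNDIG1 counts. AppHu replicate 7 had 10 mouse Plac8 beside 74 human PLAC8 counts. Whether reads were assigned to the wrong species was not tested.

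Among the mouse genes, 10 of 10 microglial markers were higher in AppSAA, where 52.4% of all mouse genes were. Their median log2 fold change was 0.56, beside 0.027 over all mouse genes. None passed the threshold, and 4 had an unadjusted p under 0.05 by edgeR, beside 878 of 9376 mouse genes. Among the markers with the highest mouse CPM were Csf1r (1719.8 and 2588 CPM, adjusted p = 0.529), P2ry12 (1234 and 1795 CPM, 0.558) and C1qb (929 and 1562 CPM, 0.456), all by edgeR. Of 12 mouse endothelial markers tested 4 were higher and 8 lower, with a summed level of 333 to 1130 CPM of mouse counts in AppHu and 446 to 1238 in AppSAA. None passed, the highest being Slco1a4 (161 and 161 CPM, adjusted p = 0.997), Flt1 (155 and 103 CPM, 0.608), Kdr (113 and 129.8 CPM, 0.957) and Ly6c1 (71.9 and 73.5 CPM, 0.995), all by edgeR.

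Of 3 mouse neuronal markers tested 1 was higher and 2 lower, namely Snap25 (89.8 and 129.5 CPM, adjusted p = 0.596), Tubb3 (19.6 and 12.4 CPM, 0.827) and Stmn2 (17.0 and 12.5 CPM, 0.894), all by edgeR. Of 4 mouse neutrophil and monocyte markers tested 2 were higher and 2 lower, namely Csf3r (138 and 206 CPM, adjusted p = 0.546), S100a9 (27.8 and 36.8 CPM, 0.931), S100a8 (28.6 and 27.8 CPM, 0.996) and Ccr2 (23.5 and 22.4 CPM, 0.990), all by edgeR. In the mouse endothelin axis 4 of 5 tested genes were higher and none passed, by edgeR: Ednrb was at 511 and 766 CPM (adjusted p = 0.773), Ece1 at 135 and 159 CPM (0.816), Ednra at 24.9 and 30.6 CPM (0.864), Ece2 at 13.2 and 6.32 CPM (0.773) and Furin at 11.7 and 11.9 CPM (0.996). No mouse gene was called at an adjusted p under 0.05 by edgeR, and 878 of 9376 had an unadjusted p under 0.05.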

How the data were processed

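RNA of sorted human microglia was made into cDNA with SMART-Seq HT PLUS and sequenced as single reads. Per the submitters' processing notes, the authors aligned them with STAR 2.7.11a to mm10 and GRCh38 combined, checked them with FastQC 0.11.9 and counted them with featureCounts 2.0.1. The deposited values are raw counts per gene. Annotation release, strand setting and the treatment of multimapping reads are not given in the sources used here. Groups came from the labelled genotype.

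The 3 genes and all lists were chosen with earlier results of these data known. Human genes that reached 10 counts in 6 or more of the 10 libraries were fitted in R 4.3.3 with edgeR 4.0.16 (TMM, glmQLFit in legacy mode, glmQLFTest, Benjamini-Hochberg over all genes, threshold 0.05), and mouse genes apart. The fit was tested on simulated data. CPM are scaled to the human total after TMM. Single values were compared with exact permutation tests over 252 arrangements, whose smallest p is 0.00794. Named genes are the 3 genes, their mouse counterparts, the tested genes of their families, of other lists those past the threshold and otherwise up to 4 tested genes of highest CPM, and the 4 and 2 genes most alike by r. Of the genes this rule names, 2 markers are not reported here. Others named, such as genes without counts, were chosen after their values were seen. Log2 CPM used a prior count of 2. Libraries are separate mice per the paper, and no 2 libraries of a group agree within sampling noise. Alternatives were DESeq2 1.42.0, other factors and filters, covariates, a replicate block and each library left out. Promoters are from RefSeq and positions from GENCODE 44.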

Additional observations from a re-analysis of the deposited data

Results flagged for a closer look

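In 9 of 104 groups of 5 libraries, 1 library stood apart from the other 4 (gap to the nearest library over the group's range above 0.71, Dixon's limit for 5 samples, which chance passes in about 1 in 20 groups). PLAC8 reached 9.48 CPM in AppSAA replicate 8, and the other AppSAA libraries lay between 6.31 and 6.89 CPM. Mouse Edn1 had 16 counts in AppHu replicate 8 and mouse Plac8 had 5 counts in AppSAA replicate 6. EDNRB was at 17.1 CPM in AppHu replicate 7. In AppSAA replicate 4, IFITM1 was at 7.27 CPM, IFITM3 at 127 CPM and S100A8 at 15.7 CPM. RBFOX3 was at 1.54 CPM in AppHu replicate 7 and TMEM91 at 12.1 CPM in AppSAA replicate 5. What these libraries share was not tested.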

How the results depend on the processing

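The log2 fold change of EDN1 was 2.07 to 2.42 with each library left out and 2.17 to 2.57 under the other alternatives, that of SYNDIG1 0.83 to 0.95 and 0.87 to 0.98, and that of PLAC8 1.10 to 1.35 and 1.21 to 1.49.

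The number of human genes called was 12 in edgeR, 215 in DESeq2, 32 without the filter, 19 in edgeR's new mode, 1 with the library total as a covariate, 5 with the mouse share as a covariate and 2 to 34 with each library left out (2 without AppHu replicate 3, AppHu replicate 7 or AppSAA replicate 8, 4 without AppHu replicate 4 or AppSAA replicate 6, and 34 without AppSAA replicate 5). With the replicate number as a block over 8 libraries it was 58, against 6 in the same libraries without the block. Genes apart and higher in AppSAA numbered 244, 524 in these 8 libraries with or without the block, and 312 to 407 with each library left out. Groups of fewer libraries are apart more easily, so the larger counts cannot be compared with 244. Deviations of same-numbered libraries correlated at 0.0608, 0.0315, 0.182 and 0.111, and 7 of 8 libraries correlated best with their own number, a hint from the data and not from the design. The 3 chosen genes are left out of the next count. Of the other pathway and family genes, the factors at the EDN1 promoter included, 0 were called, or 1 with the replicate block (JUN, one of those factors). Of the cell type and immediate early genes 2 were called, 5 in DESeq2, 7 with the replicate block, 1 in the same 8 libraries without it, 0 with either covariate and 0 to 3 with each library left out. JUN is also an immediate early gene and is counted again among the 7. The log2 difference of mouse Plac8, -0.89, was -1.23 (without AppSAA replicate 6, where the exact p was 0.0476 before adjustment over the 3 genes) to -0.64 with each library left out and -4.15 to -1.46 as the fold change fitted to the unfiltered mouse genes under the other alternatives. That of mouse Edn1, 0.12, was -0.19 to 0.62 and -0.72 to 2.99, and that of mouse Syndig1, 0.076, was -0.40 to 0.45 and -0.053 to 1.17. EGR1 and EGR3 lost their call with either covariate, at log2 fold changes of 1.29 to 1.71. The causes were not tested. EDN1 and PLAC8, at 40 and 74 counts in their lowest libraries, are limited by depth more than SYNDIG1.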
